A study of Mus musculus with 12 samples.

Results

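Interferon-stimulated genes are the genes that cells switch on when interferon binds its receptors, and 39 of them were followed through the 4 sorted cell populations of this series. They were taken by symbol from the deposited gene table, which lists 33531 genes, and all 39 symbols were found in it. Expression was measured by RNA-seq of polyadenylated RNA and is given as FPKM, fragments per length of transcript and per number of mapped fragments, a unit that already allows for transcript length. The large arteries (dorsal aorta, vitelline and umbilical) of 122 mouse embryos at embryonic day 11.5 gave the cells. The embryos had C57BL/6 x 129S1/SVImJ F1 mothers and Tg(Ly6a-GFP) fathers and are labelled as Ly6a-GFP+ themselves, and GFP reports activity of the Ly6a regulatory sequences in a cell. The populations were GFP+ hematopoietic cluster cells (HC GFP+, 53000 cells), GFP- hematopoietic cluster cells (HC GFP-, 413000 cells), GFP+ endothelial cells (EC GFP+, 377000 cells) and GFP- endothelial cells (EC GFP-, 791000 cells). The sort took cells with CD31, CD144 and ESAM on their surface, as HC where they also had c-Kit and as EC where they lacked it. Each population was pooled into 3 independent biological samples, numbered here as replicates 1 to 3, and each pool mixes cells of many embryos.

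Type I interferons bind the receptor pair encoded by Ifnar1 and Ifnar2, whose kinases activate a transcription factor complex that holds the proteins of Stat2 and Irf9, and this complex binds the interferon-stimulated response element in target promoters. Interferon gamma uses a separate receptor pair, encoded by Ifngr1 and Ifngr2, and a factor that binds the gamma-activated site. The induced proteins block viruses at entry, at translation and at release, sense foreign RNA, and feed back on the pathway. Many of them also have a basal level in cells that met no virus, and inflammatory signals, interferons among them, are known to act on the formation of blood stem cells in mouse and zebrafish embryos. Ly6a, the gene behind the GFP reporter, is itself known to be inducible by interferon.

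The promoters of 3 neighbouring members are shown because these genes lie side by side on chromosome 7, with no other coding gene between them, and had unlike levels in the 4 populations. Ifitm1, Ifitm2 and Ifitm3 encode small membrane proteins that hinder the fusion of viruses with the cell, and Ifitm1 and Ifitm3 are also known as markers of early germ cells in the mouse embryo. Each window runs from 250 bases before to 50 bases after the gene's start in RefSeq (GRCm38.p6), is written 5′ to 3′ on the gene's strand, and has in capitals the core of the interferon-stimulated response element, searched as GAAANNGAAA on either strand (TTTCNNTTTC when read on the other). Ifitm1 lies at chr7:140967826-140968125 on the plus strand, Ifitm2 at chr7:140955912-140956211 on the minus strand and Ifitm3 at chr7:141010695-141010994 on the minus strand.
Ifitm1: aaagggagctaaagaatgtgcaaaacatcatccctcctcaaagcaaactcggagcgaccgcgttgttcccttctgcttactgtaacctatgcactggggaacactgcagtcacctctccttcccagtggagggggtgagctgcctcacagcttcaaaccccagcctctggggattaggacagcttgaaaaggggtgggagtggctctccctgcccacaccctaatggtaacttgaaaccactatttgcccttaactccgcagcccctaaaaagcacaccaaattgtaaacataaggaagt
Ifitm2: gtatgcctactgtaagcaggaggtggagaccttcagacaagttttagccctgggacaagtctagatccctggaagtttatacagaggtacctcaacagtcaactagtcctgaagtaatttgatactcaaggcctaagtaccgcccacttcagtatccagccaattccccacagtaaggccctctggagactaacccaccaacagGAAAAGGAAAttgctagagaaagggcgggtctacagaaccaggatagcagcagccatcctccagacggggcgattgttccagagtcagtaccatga
Ifitm3: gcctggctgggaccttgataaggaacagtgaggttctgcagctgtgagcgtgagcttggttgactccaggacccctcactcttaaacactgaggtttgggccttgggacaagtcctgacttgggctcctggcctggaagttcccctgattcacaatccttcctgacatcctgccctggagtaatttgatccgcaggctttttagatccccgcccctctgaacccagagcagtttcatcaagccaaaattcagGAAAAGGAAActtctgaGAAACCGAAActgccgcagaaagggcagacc
The window of Ifitm2 holds 1 match, 46 bases before the start, and that of Ifitm3 holds 2, which begin at bases 3 and 20 of the transcript. The window of Ifitm1 has no such letters, which says nothing of sites elsewhere.

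The same core stood in 13 of the 34 promoter windows that RefSeq gives for 30 members, which is 38.2%, against 3.44% of all 32851 windows of that length. A gamma-activated site, searched as TTCNNNGAA, stood in 7 of the 34 member windows (20.6%), against 8.3% of all windows, and both are descriptions of letters and not of binding. Ifi27l2a, Mx2, Oas2, Parp9, Dhx58, Rtp4, Parp14, Usp18 and Mx1 were not matched by symbol. The stretches below are shown because they differ in how many cores they hold and how these overlap: 3 overlapping cores in Isg15 (chr4:156200863-156200908, minus strand), 2 overlapping cores in Oas1a (chr5:120907518-120907557, minus strand) and Bst2 (chr8:71537575-71537614, minus strand), 2 separate cores on the other strand in Ifit1 (chr19:34640773-34640825, plus strand) and Ifit3 (chr19:34583361-34583428, plus strand), and 1 core in Oas3 (chr5:120777713-120777746, minus strand) and Stat2 (chr10:128270264-128270297, plus strand).
Isg15: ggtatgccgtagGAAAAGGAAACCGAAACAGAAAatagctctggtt
Oas1a: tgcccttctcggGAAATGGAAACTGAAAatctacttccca
Bst2: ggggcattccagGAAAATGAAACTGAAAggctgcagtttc
Ifit1: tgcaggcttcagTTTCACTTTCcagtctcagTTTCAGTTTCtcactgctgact
Ifit3: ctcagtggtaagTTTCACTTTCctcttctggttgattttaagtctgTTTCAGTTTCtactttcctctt
Oas3: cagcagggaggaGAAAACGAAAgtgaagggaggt
Stat2: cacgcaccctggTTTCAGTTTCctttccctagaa
Ddx58, Eif2ak2, Ifih1 and Rsad2 were the other members with a core in their window.

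The labels were checked against marker genes. Ly6a stood at 6.83, 7.09 and 3.57 FPKM in HC GFP+ and 8.82, 8.42 and 9.05 in EC GFP+, against 0.778, 1.47 and 0.0538 in HC GFP- and 1.26, 1.37 and 0.0585 in EC GFP-. The 5 hematopoietic cluster markers summed to 59.6 to 78.8 FPKM in HC GFP+, 8.96 to 16.0 in HC GFP-, 5.55 to 9.81 in EC GFP+ and 1.07 to 1.78 in EC GFP-. The sums of HC GFP- and EC GFP+ thus overlapped, and their single markers were split. Gfi1 averaged 0.565 FPKM in HC GFP- against 2.95 in EC GFP+, and Spn 0.673 against 1.94. Both were lower in every HC GFP- pool than in any EC GFP+ pool. Runx1, Myb and Ptprc were higher in every HC GFP- pool. Runx1 and Ptprc had the highest means there (4.81 and 5.53 FPKM) and were lowest in replicate 2. Kit, the gene of the protein that split the sort, stood at 34.2, 39.2 and 33.2 FPKM in HC GFP+, against 13.3, 14.5 and 14.2 in EC GFP+, and at 19.2, 25.8 and 19.1 in HC GFP-, against 12.6, 17.6 and 18.6 in EC GFP-. In the GFP- cells the lowest HC pool was thus just above the highest EC pool. Genes that mark macrophages were read in all HC pools: 17 such markers summed to 1097, 400 and 2292 FPKM in HC GFP+ replicates 1, 2 and 3 and to 1178, 367 and 958 in HC GFP-, against 27.0, 23.5 and 59.0 in EC GFP+ and 22.0, 25.7 and 31.8 in EC GFP-. None of the 17 was listed at 0 in every EC pool. HC GFP+ replicate 3 had the highest sum of all libraries. Granulocyte markers (7 genes, 1 of them at 0 in all EC pools) summed to 30.2, 41.0 and 45.4 FPKM in HC GFP+, against 11.3, 9.56 and 14.4 in HC GFP-, and were at 1.44 to 7.82 in EC GFP+ and 3.73 to 12.4 in EC GFP-. Lymphoid markers (6 genes, 1 of them at 0 in all EC pools) summed to 6.89 to 9.31 FPKM in HC GFP+, against 3.74 to 6.07 in HC GFP-, and were at 1.82 to 2.34 in EC GFP+ and 3.43 to 4.74 in EC GFP-. Both lists were higher in every HC GFP+ pool than in any HC GFP- pool. Megakaryocyte markers summed to 105 to 273 FPKM in HC GFP+ and 105 to 229 in HC GFP-, mesenchymal markers to 262 to 571 in HC GFP+ and 450 to 1345 in HC GFP-, and red cell markers to 779 to 1068 in HC GFP+ and 5833 to 9043 in HC GFP-. The part of these cells in the results was not tested. Depth cannot be read from FPKM and is unknown, FPKM sums ran from 555675 to 691948 per library, and genes listed at exactly 0 may have been missed.

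Most interferon-stimulated genes stood highest in HC GFP+. Of the 39, 36 had their highest population mean there, and the exceptions were Ifitm2, with mean FPKM of 269 in HC GFP+ and 271 in EC GFP+, Samd9l, with 1.57 in HC GFP+ and 2.62 in EC GFP+, and Cmpk2, with 5.07 in HC GFP+ and 6.24 in EC GFP-. Without HC GFP+ replicate 3 it was 33, as Ifi35, Ifitm3 and Rsad2 then had their highest mean elsewhere. Among the 36 members that could be tested, it held for 33, against 29.8% of all 13278 tested genes. For 5 of these the test was open only through their level in HC GFP+, which nearly fixes the order, and among the 31 others it held for 28, against 28.8% of the 12932 genes open to the test in the same way (25 and 28.2% without HC GFP+ replicate 3). In bulk pools, more cells of one kind and more RNA per cell cannot be told apart. The median FPKM of the 39 members was 5.32, 4.05 and 9.33 in HC GFP+, 3.08, 1.45 and 2.97 in HC GFP-, 2.56, 2.74 and 4.31 in EC GFP+ and 1.70, 1.30 and 2.25 in EC GFP-. HC GFP+ replicate 3 was the highest library, and HC GFP+ replicate 2 lay below EC GFP+ replicate 3.

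**Figure D1:**
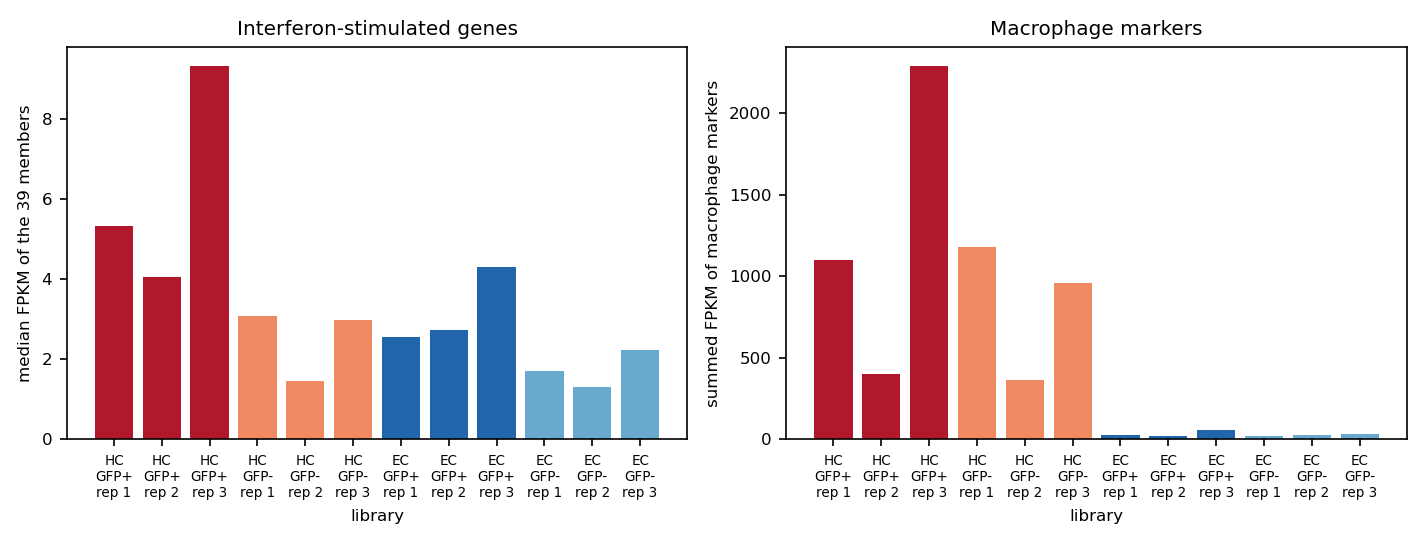
Median FPKM of the 39 interferon-stimulated genes (left) and summed FPKM of 17 macrophage markers (right), 1 bar per library, coloured by population. HC GFP+ replicate 3 was the highest bar in both panels, at 9.33 and 2292, and the 6 EC libraries had marker sums of 22.0 to 59.0.

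**Figure D2:**
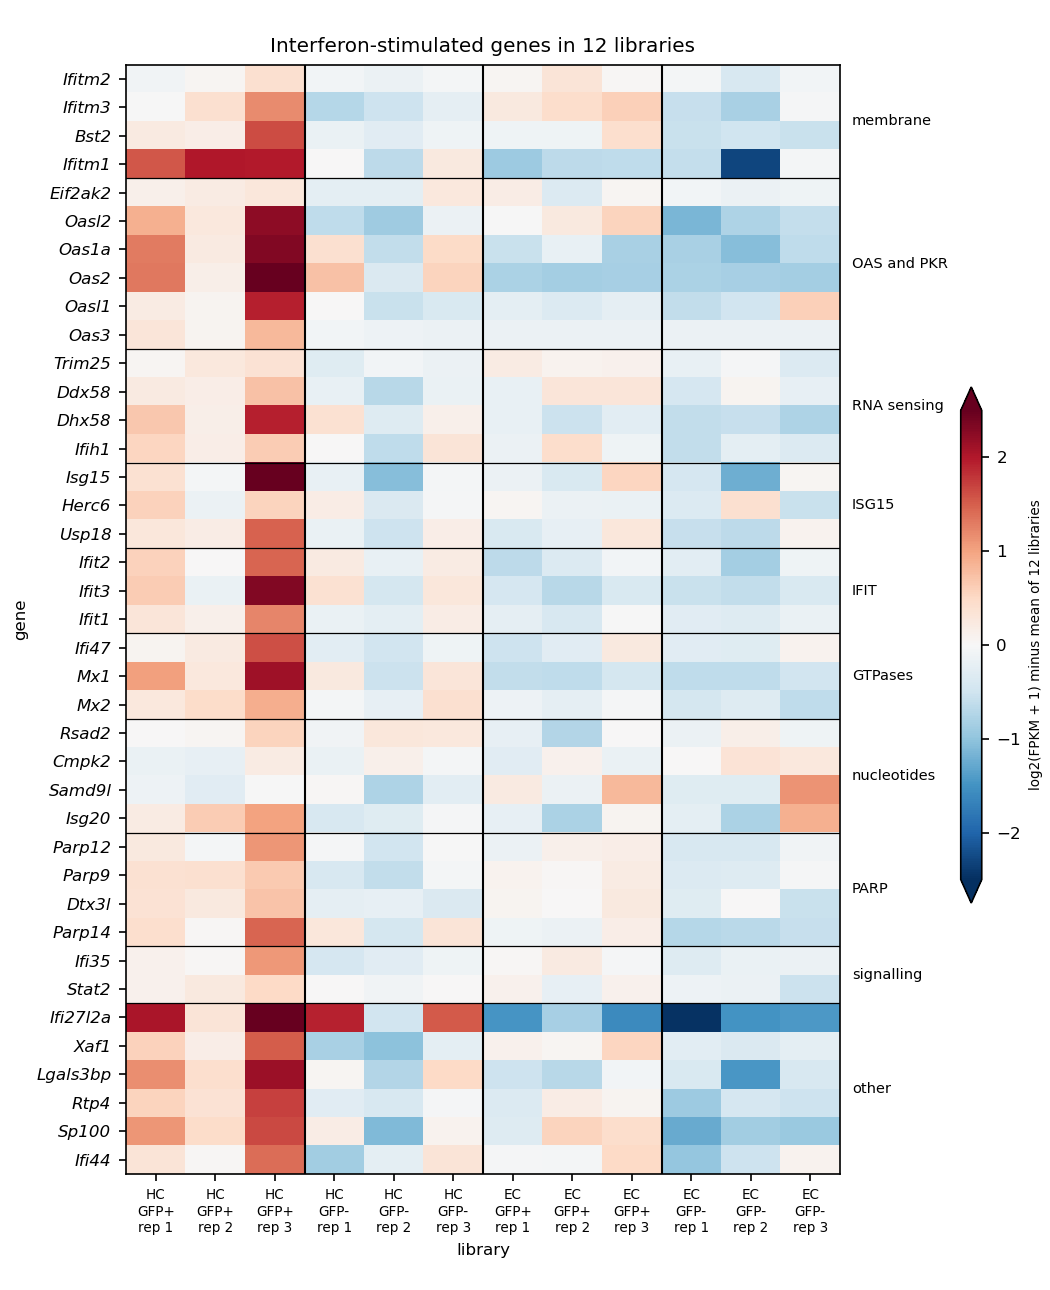
log2(FPKM + 1) of each of the 39 genes in each library, less the gene's mean over the 12 libraries, with genes grouped by role and colours ending at the limits of the scale. The HC GFP+ columns, above all replicate 3, were red in most rows, and Cmpk2, Samd9l and Ifitm2 had their highest population mean elsewhere.

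GFP+ HC were set against GFP- HC to ask how the cluster cells with an active Ly6a reporter differ from those without. Of the 36 members tested, 5 were higher in HC GFP+ (13.9%, against 2.98% of all genes) and 0 were lower (against 1.28%): Ifitm1, Oasl2, Xaf1, Parp9 and Dtx3l. The test was limma on log2(FPKM + 1) with an adjusted p under 0.05. At an unadjusted p under 0.05, 21 members were higher, against 9.75% of all genes, and 0 were lower. The log2 change was positive in 35 of 36 members, with a median of 0.83, against 50.2% and a median of 0.00 over all genes. A gene was tested when at least 3 of the 12 libraries reached FPKM 1, and Oas2, Ifit3, Oasl1, Isg20 and Mx2 reached that only through HC GFP+, so these counts describe the members and do not test them as a group. All 3 HC GFP+ pools lay above all 3 HC GFP- pools for 18 of 36 members, against 13% of all genes, and without HC GFP+ replicate 3 the other 2 pools did so for 18, against 20%.

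Of the membrane proteins, Ifitm1 had the largest change of any member. It stood at 54.3, 75.2 and 74.1 FPKM in HC GFP+, against 18.0, 11.0 and 21.3 in HC GFP-, and the groups did not overlap. The log2 change was 1.99 ± 0.45 (SE; limma, adjusted p = 0.0311), a 3.97-fold rise on the scale of FPKM + 1. Its neighbours were more abundant and changed less: Ifitm2 stood at 229, 255 and 323 FPKM in HC GFP+, against 235, 221 and 236 in HC GFP-, groups that overlapped (log2 0.21 ± 0.13, adjusted p = 0.495). Ifitm3 stood at 74.2, 99.1 and 170 FPKM in HC GFP+, against 45.2, 51.4 and 63.8 in HC GFP-. These groups did not overlap, yet the log2 change of 1.01 ± 0.28 missed the threshold (limma, adjusted p = 0.0717). Ifitm3 passed it when libraries had the same FPKM sum (1.06) and without HC GFP+ replicate 1 (1.28). It also passed with quantile normalization and with replicate number as a block. Bst2, which encodes tetherin, a protein that ties budding virus to the cell surface, stood at 79.5, 76.4 and 213 FPKM in HC GFP+, against 61.0, 55.7 and 63.0 in HC GFP- (log2 0.85 ± 0.31, adjusted p = 0.183). Reads of Ifitm2 and Ifitm3 can be split between these like genes, so their levels are less certain.

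**Figure D3:**
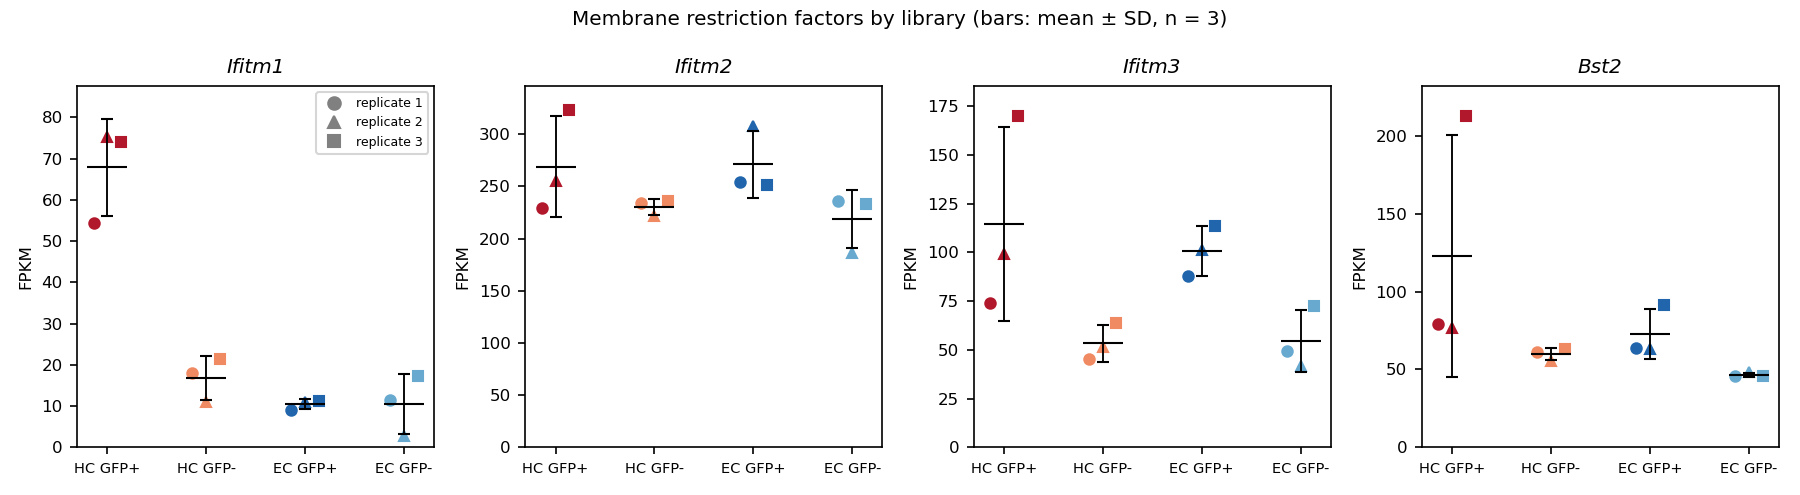
FPKM of Ifitm1, Ifitm2, Ifitm3 and Bst2 in each library, with the mean and SD of each population (n = 3). Ifitm1 was at 54.3 or more in HC GFP+ and at 21.3 or less in the other 9 libraries, whereas Ifitm2 stood between 186 and 323 everywhere.

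Dtx3l and Parp9, which lie side by side on chromosome 16 and encode a ubiquitin ligase and its ADP-ribosyltransferase partner, both rose. Parp9 stood at 7.56, 7.67 and 9.33 FPKM in HC GFP+, against 4.04, 3.31 and 5.42 in HC GFP- (log2 0.82 ± 0.16, adjusted p = 0.013). Dtx3l stood at 5.11, 4.70 and 6.85 FPKM in HC GFP+, against 3.08, 3.14 and 2.75 in HC GFP- (log2 0.70 ± 0.17, adjusted p = 0.041). Both pairs of groups were apart. HC GFP+ replicate 3 was the highest pool for both genes, at 1.23 times the mean of replicates 1 and 2 for Parp9 and 1.40 times for Dtx3l. Parp12 and Parp14, the other members placed in the same role group, did not pass, with log2 changes of 0.60 and 0.57. Parp14 lies beside Dtx3l as well.

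Among the 2′-5′ oligoadenylate synthetase genes, whose enzymes respond to double-stranded RNA, Oasl2 rose. It belongs to the synthetase-like branch and stood at 6.74, 4.05 and 18.9 FPKM in HC GFP+, against 1.71, 1.25 and 2.80 in HC GFP- (log2 1.69 ± 0.41, adjusted p = 0.044). The lowest HC GFP+ pool was above the highest HC GFP- pool. Oas1a, Oas2 and Oasl1, which in mice also restrains translation of Irf7, had log2 changes of 1.19, 1.03 and 1.05 that did not pass, and Eif2ak2, which encodes the kinase PKR that halts translation, had 0.28. Reads of Oas1a can be split with its near copies in the same cluster.

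Xaf1, whose product binds the apoptosis inhibitor XIAP, rose as well. It stood at 11.8, 8.72 and 23.6 FPKM in HC GFP+, against 3.89, 3.23 and 6.31 in HC GFP- (log2 1.45 ± 0.30, adjusted p = 0.0218), and the groups were apart. The other 5 members of the mixed group had positive changes that did not pass: 1.35 for Sp100, a nuclear body protein, 1.31 for Lgals3bp, a secreted galectin-binding protein, 1.12 each for Rtp4 and Ifi27l2a, and 0.85 for Ifi44. Ifi27l2a, which has a close copy, spread over 25.2, 6.95 and 99.3 FPKM within HC GFP+, against 23.2, 3.57 and 17.5 in HC GFP-, so its groups overlapped.

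No sensor, ISG15-pathway or IFIT gene passed in this comparison. The RNA sensing genes Ddx58 (RIG-I), Ifih1 (MDA5) and Dhx58 (LGP2) had log2 changes of 0.72, 0.55 and 0.87, and Trim25, a ubiquitin ligase that acts on RIG-I, had 0.39. Trim25 was the most even of them, at 22.4, 26.2 and 28.2 FPKM in HC GFP+, against 17.5, 20.6 and 19.6 in HC GFP- (adjusted p = 0.0755). Isg15, a ubiquitin-like modifier, had a log2 change of 1.39, with an SE of 0.59 that reflects its 5.32, 3.68 and 27.2 FPKM in HC GFP+, against 3.29, 1.32 and 3.67 in HC GFP-. Usp18, which removes ISG15 from proteins, had 0.81, and Herc6, the ligase that attaches it in mice, had 0.39. Ifit2 and Ifit3 had 0.59 and 0.85, and the GTPase genes Mx2 and Ifi47 had 0.49 and 0.91.

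The lowest log2 changes were those of Rsad2 and Cmpk2. Rsad2, which encodes viperin, stood at 5.66, 5.83 and 8.76 FPKM in HC GFP+, against 5.23, 7.04 and 6.92 in HC GFP- (log2 0.05). Its neighbour Cmpk2, a nucleotide kinase gene, stood at 4.56, 4.46 and 6.20 FPKM in HC GFP+, against 4.56, 5.85 and 5.04 in HC GFP-, and its log2 change of -0.02 was the single negative value. Both pairs of groups overlapped. Samd9l had a log2 change of 0.19 and the exonuclease gene Isg20 one of 0.86, without passing. Of the 2 members grouped as signalling, Stat2 had 0.31 and Ifi35 0.67, and neither passed.

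The 5 calls rest on few pools. Ifitm1 no longer passed without any 1 of the 6 HC pools (log2 1.73 to 2.18), Parp9 when HC GFP+ replicate 3 (0.73), HC GFP- replicate 1 (0.80) or HC GFP- replicate 2 (0.69) was dropped, and Xaf1 when HC GFP- replicate 1 (1.38) or 2 (1.28) was. Oasl2 passed in just 1 of the 12 omissions, that of HC GFP+ replicate 2 (1.13 to 1.90 in the others), and Dtx3l in 3, those of HC GFP+ replicate 2 and EC GFP- replicates 2 and 3 (0.57 to 0.75 in the others). Without HC GFP+ replicate 3, Xaf1 was the 1 member called (log2 1.06, adjusted p = 0.045, against 1.82% of genes higher), and without HC GFP- replicate 1 or 2 there was 0. The count was 2 without HC GFP- replicate 3 and 3 without any 1 of the EC GFP+ pools or EC GFP- replicate 1, pools that enter through the shared estimate of the spread. Over the 12 omissions, 1.74% to 3.36% of all genes were called higher. With a pseudocount of 0.1 Ifitm1 was at 2.05 and missed the threshold, with the 6 HC libraries fitted alone Ifitm1 was the 1 call, and with no filter Parp9 was.

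**Figure D4:**
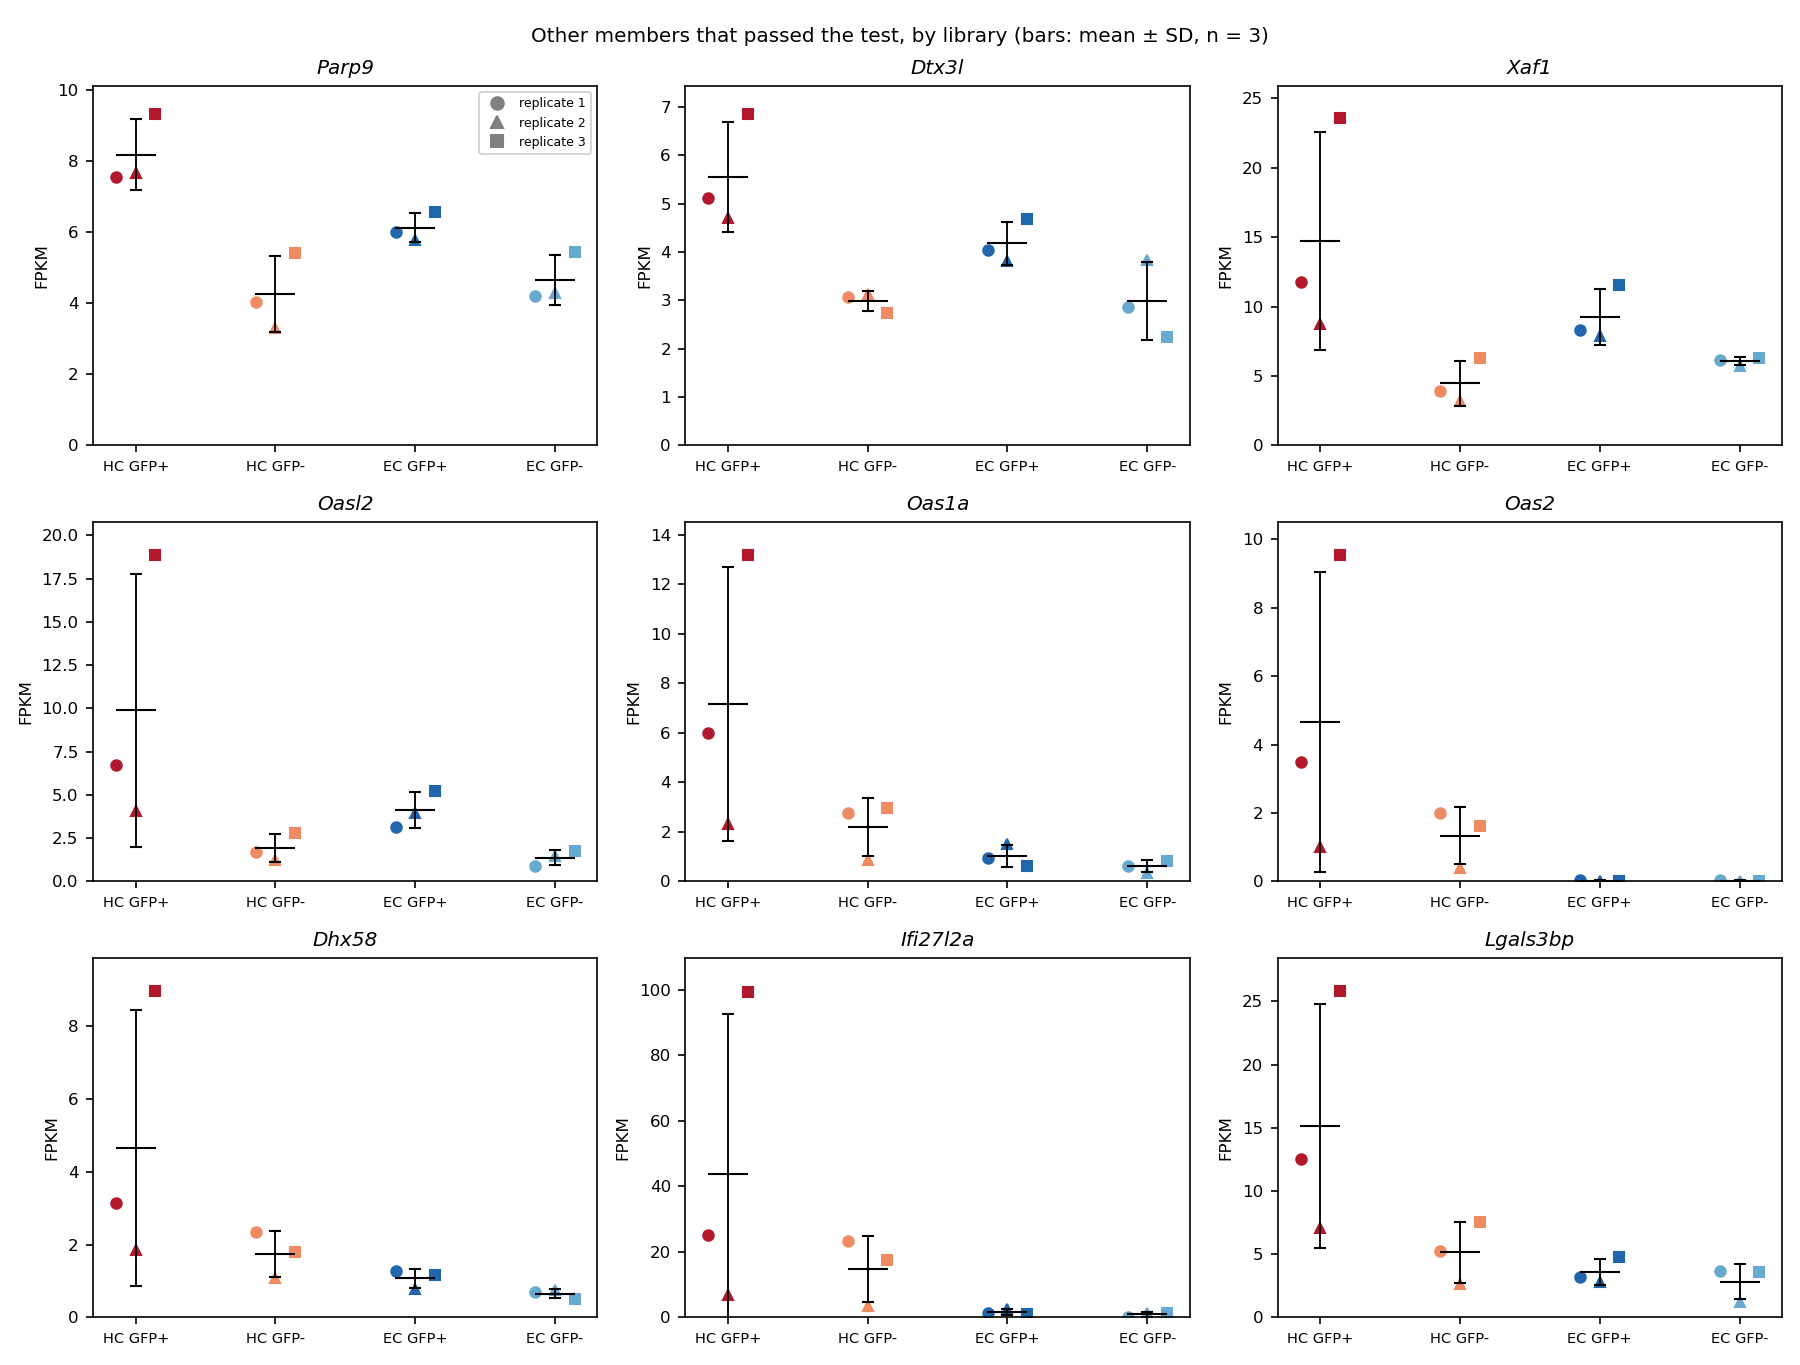
FPKM of the other 9 members that passed the test in at least 1 comparison, in each library, with the mean and SD of each population (n = 3; a lower bar that would pass 0 ends at the axis). HC GFP+ replicate 3 was the highest HC GFP+ pool in every panel, by less for Parp9 and Dtx3l than in the other 7 panels, where it stood far above replicates 1 and 2.

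The members differed in how much of their level in HC GFP+ came from replicate 3. That pool was the highest of the 3 for 34 of 36 members, against 39.1% of all genes, and Ifitm1 and Herc6 were the exceptions. Its FPKM was 2.14 times the mean of the other 2 pools in the median member, 0.991 times in the median gene, and 3.06 times for the summed macrophage markers. The ratio was 6.70 for Ifit3, 6.17 for Ifi27l2a, 6.05 for Isg15 and 5.82 for Oasl1, but 1.09 for Eif2ak2, 1.15 for Ifitm1, 1.16 for Trim25 and 1.23 for Parp9. Without that pool the median log2 change between GFP+ and GFP- HC was 0.41, with 34 of 36 positive, and single members differed: Ifitm1 had 1.92 without it and 1.99 with it, Isg15 0.60 and 1.39, Ifi27l2a 0.19 and 1.12, and Ifit3 0.15 and 0.85.

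The order of the HC GFP+ pools was that of their macrophage marker sums (replicate 3, then 1, then 2) for 24 of 36 members, against 22.6% of all genes. In HC GFP-, where the order was replicate 1, then 3, then 2, it was followed by 9 of 36, near the 22% of all genes. That full order turns on the close sums of replicates 1 and 3 (1178 and 958), whereas replicate 2 was far lower (367). The median FPKM of the members was lowest in HC GFP- replicate 2 as well, at 1.45, against 3.08 in replicate 1 and 2.97 in replicate 3. Whether members followed this larger step more often than other genes was not tested. Oas2, Oasl1, Dhx58, Ifit2, Ifit3, Samd9l, Ifi27l2a and Sp100 followed the full order in both populations. The share of all genes that did so is not given here, so this is a description of single members. With the macrophage marker level as a covariate, an alternative added after the data had been seen, 5 members were higher in HC GFP+, against 3.1% of all genes. These were Xaf1 (log2 1.27, adjusted p = 0.00411), Oasl2 (1.45, adjusted p = 0.00961), Parp9 (0.76, adjusted p = 0.0128), Sp100 (1.13, adjusted p = 0.0288) and Ifitm1 (1.92, adjusted p = 0.0477), while Dtx3l had 0.66 (adjusted p = 0.0552). Ifi27l2a had 0.63, Ifit3 0.55 and Isg15 1.03 in that fit, with no call. The fit used the same slope for HC and EC pools, and the part of macrophages in these changes was not tested by it.

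**Figure D5:**
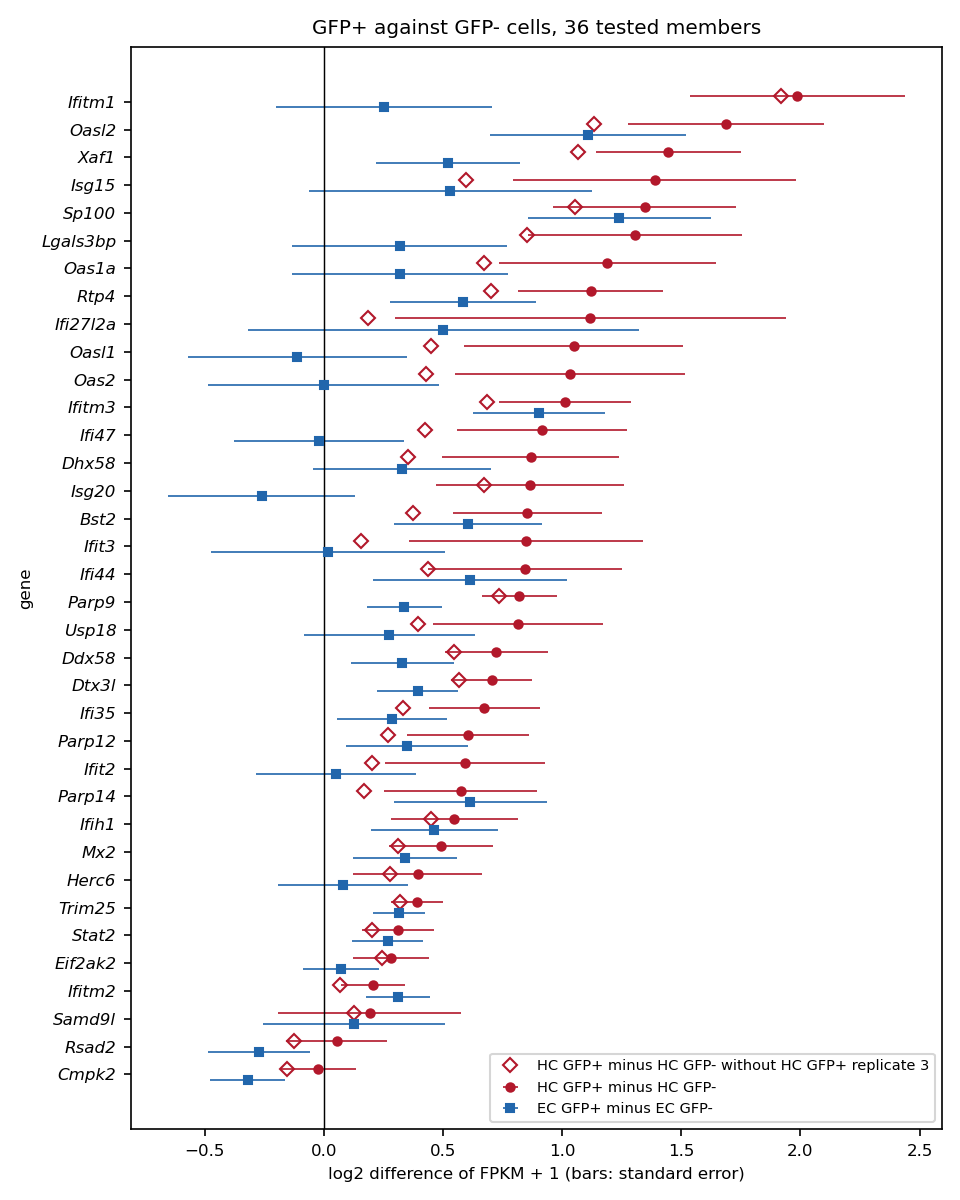
Log2 change of each of the 36 tested members between GFP+ and GFP- cells, in HC with all pools (filled circles), in HC without HC GFP+ replicate 3 (open diamonds) and in EC (squares), with SE. Circle and diamond lay at 1.99 and 1.92 for Ifitm1, but at 1.12 and 0.19 for Ifi27l2a.

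Among endothelial cells, 0 of 36 members passed in either direction between EC GFP+ and EC GFP- (limma), against 6.96% of all genes higher and 6.51% lower. At an unadjusted p under 0.05, 6 were higher, against 12.4% of all genes, and 0 were lower: Ifitm3, Sp100, Trim25, Oasl2, Dtx3l and Ifitm2. The log2 change was positive for 30 of 36, with a median of 0.32, against 45.1% and a median of -0.03 over all genes, and all 3 EC GFP+ pools lay above all 3 EC GFP- pools for 14 of 36, against 14.8% of all genes. Macrophage markers were low on both sides, with summed FPKM of 23.5 to 59.0 in EC GFP+ and 22.0 to 31.8 in EC GFP-. Red cell markers summed to 876, 2252 and 1060 FPKM in EC GFP+, against 3871, 3147 and 7244 in EC GFP-, groups that were apart, and mesenchymal markers to 259 to 516 in EC GFP+ and 291 to 1259 in EC GFP-. Their part in this comparison was not tested.

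The membrane genes showed this in their single pools. Ifitm3 stood at 88.1, 101 and 114 FPKM in EC GFP+, against 49.6, 41.9 and 72.7 in EC GFP- (log2 0.90 ± 0.28, adjusted p = 0.0531). Bst2 stood at 63.5, 63.3 and 91.2 FPKM in EC GFP+, against 46.0, 48.1 and 46.0 in EC GFP- (log2 0.61, adjusted p = 0.23). Ifitm2 stood at 254, 308 and 251 FPKM in EC GFP+, against 236, 186 and 233 in EC GFP- (log2 0.31, adjusted p = 0.154). All 3 had groups that did not overlap and missed the threshold. Ifitm1, in contrast, stood at 9.12, 11.0 and 11.2 FPKM in EC GFP+, within the 11.4, 2.87 and 17.3 of EC GFP- (log2 0.25, adjusted p = 0.768, and -0.40 without EC GFP- replicate 2).

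Outside the membrane group, Sp100 stood at 2.35, 5.14 and 4.69 FPKM in EC GFP+, against 0.743, 1.30 and 1.21 in EC GFP- (log2 1.24 ± 0.38, adjusted p = 0.0553). Oasl2 stood at 3.17, 3.97 and 5.21 FPKM in EC GFP+, against 0.894, 1.45 and 1.77 in EC GFP- (log2 1.11 ± 0.41, adjusted p = 0.102). Both sets of groups were apart. With an equal FPKM sum, which moved the median change of all genes to 0.14, Ifitm2, Ifitm3, Parp9, Sp100 and Trim25 passed as higher, as did 14.4% of all genes (2.15% passed as lower). Leaving out HC GFP+ replicate 3, which enters through the shared estimate of the spread, let Bst2, Ifitm3, Oasl2 and Sp100 pass in EC. Sp100 also passed when replicate 2 of HC GFP+, replicate 2 of HC GFP- or replicate 1 of EC GFP+ was dropped, Ifitm3 when replicate 1 of HC GFP+ or replicate 3 of EC GFP- was, and Dtx3l and Trim25 when replicate 2 of EC GFP- was. Trim25 stood at 25.1, 23.1 and 23.6 FPKM in EC GFP+, against 18.9, 21.4 and 17.0 in EC GFP-, groups that were apart. The lowest changes in EC were -0.32 for Cmpk2, -0.27 for Rsad2 and -0.26 for Isg20, with no call.

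HC GFP+ were next set against EC GFP+, 2 types of cell that share an active reporter. Of 36 members, 6 were higher in HC GFP+ (16.7%, against 8.21% of all genes) and 0 were lower (against 6.09%), with 16 higher at an unadjusted p under 0.05, against 16.6% of all genes, and 0 lower. The median log2 change was 0.63, positive in 34 of 36, against 0.05 and 57.3% over all genes, and the groups were apart for 14 of 36 members, against 19.6% of all genes. Without HC GFP+ replicate 3 the median was 0.30, positive in 31 of 36, against 0.06 and 58% over all genes, and the groups were apart for 14, against 27.3%. The 5 members tested only through HC GFP+ enter these counts, and Oas2 is 1 of the 6 calls. This comparison shares its HC GFP+ pools with the one between HC GFP+ and HC GFP-, and the macrophage marker sums were 400 to 2292 in HC GFP+ against 23.5 to 59.0 in EC GFP+.

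Ifitm1 had the lowest adjusted p, with the 54.3 to 75.2 FPKM of HC GFP+ against 9.12 to 11.2 in EC GFP+ (log2 2.58 ± 0.45, adjusted p = 0.0035), and it passed under every alternative tried for it. Oas2 stood at 3.48, 1.0 and 9.53 FPKM in HC GFP+, against 0.0399, 0 and 0.00927 in EC GFP+ (log2 2.16 ± 0.48, adjusted p = 0.0124), and missed the threshold when the 6 libraries were fitted alone (adjusted p = 0.0515). It was near 0 in EC GFP- too, at 0.0371, 0.0155 and 0. Ifi27l2a stood at 25.2, 6.95 and 99.3 FPKM in HC GFP+, against 1.28, 2.60 and 1.11 in EC GFP+ (log2 3.41 ± 0.82, adjusted p = 0.0176). It missed the threshold without HC GFP+ replicate 3 (2.48), EC GFP+ replicate 1 (3.32) or EC GFP+ replicate 3 (3.27).

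The other 3 calls were smaller. Oas1a stood at 5.98, 2.33 and 13.2 FPKM in HC GFP+, against 0.938, 1.5 and 0.623 in EC GFP+ (log2 1.80 ± 0.45, adjusted p = 0.0225), and did not pass without replicate 1 or 3 of HC GFP+ (1.79 and 1.28) or of EC GFP+ (1.78 and 1.65). Lgals3bp stood at 12.5, 7.09 and 25.8 FPKM in HC GFP+, against 3.22, 2.78 and 4.78 in EC GFP+ (log2 1.66 ± 0.45, adjusted p = 0.0306), and missed the threshold once 1 of HC GFP+ replicates 1 and 3 (1.71 and 1.21) or of EC GFP+ replicates 1 and 2 (1.62 and 1.54) was dropped. Dhx58 stood at 3.15, 1.85 and 8.99 FPKM in HC GFP+, against 1.29, 0.778 and 1.15 in EC GFP+ (log2 1.25 ± 0.37, adjusted p = 0.0454), and passed in the omission of just 2 pools, HC GFP+ replicate 2 and HC GFP- replicate 2 (0.74 to 1.37 in the others). In all 6 genes every HC GFP+ pool lay above every EC GFP+ pool. Without HC GFP+ replicate 3, the calls were Ifitm1 and Oas2. Dropping replicate 2 of HC GFP+ gave 10 calls, dropping replicate 1 of HC GFP+ or replicate 3 of EC GFP+ gave 3, and dropping replicate 1 of EC GFP+ gave 2. Over all omissions of 1 pool, 5.41% to 8.93% of all genes were called higher. With no filter Oas1a, Dhx58 and Lgals3bp missed the threshold and Mx1, left out by the filter, passed it, and with the 6 libraries fitted alone the calls were Ifitm1 and Ifi27l2a. Ifitm2, Ifitm3 and Trim25 had log2 changes of -0.02, 0.10 and 0.09 in this comparison, with no call.

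Between HC GFP- and EC GFP-, 0 of 36 members passed (limma), against 2.36% of all genes higher and 1.93% lower, and 3 were higher and 0 lower at an unadjusted p under 0.05, against 10.1% of all genes higher. The median log2 change was 0.19 and was positive in 26 of 36, against 0.01 and 52.4% over all genes (0.07 when HC GFP- replicate 3 was dropped, 0.13 and 0.31 when EC GFP- replicate 1 or 3 was), and the groups were apart for 9 of 36, against 13.4% of all genes. The macrophage sums differed here as well, with 367 to 1178 in HC GFP- against 22.0 to 31.8 in EC GFP-. Ifi27l2a stood at 23.2, 3.57 and 17.5 FPKM in HC GFP-, against 0.146, 1.26 and 1.37 in EC GFP-, and Oas2 at 2.0, 0.394 and 1.63 against 0.0371, 0.0155 and 0. Both had groups that were apart without passing the test.

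Whether GFP had a larger effect in HC than in EC was tested directly. Again 0 of 36 members passed (limma; against 0.188% of all genes higher and 0.339% lower), and at an unadjusted p under 0.05 it was 1 higher, against 6.25% of all genes, and 0 lower. The effect was larger in HC for 34 of 36 members, with a median difference of 0.39 on the log2 scale, against 55.5% and 0.04 over all genes. Without HC GFP+ replicate 3 it was larger in HC for 25 of 36, with a median difference of 0.12, against 55.2% and 0.04 over all genes. The 5 members tested only through HC GFP+ enter these counts, and that filter favours a larger effect in HC. With all pools their differences were 1.16 for Oasl1, 1.13 for Isg20, 1.04 for Oas2, 0.83 for Ifit3 and 0.15 for Mx2. The difference for Ifitm1 was 1.73 (adjusted p = 0.315), so its rise in HC was not shown to differ from its change in EC.

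The 3 members too low to test were read mostly in HC. Mx1, which encodes a dynamin-like GTPase that blocks influenza virus, stood at 2.17, 0.858 and 5.79 FPKM in HC GFP+, 0.856, 0.0793 and 0.911 in HC GFP-, 0.0226, 0 and 0.151 in EC GFP+ and 0, 0 and 0.124 in EC GFP-. Ifit1 stood at 0.63, 0.449 and 2.08 FPKM in HC GFP+, 0.178, 0.125 and 0.518 in HC GFP-, 0.138, 0 and 0.313 in EC GFP+ and 0.0844, 0.0616 and 0.175 in EC GFP-. Oas3 stood at 0.36, 0.154 and 0.932 FPKM in HC GFP+ and 0.0474, 0.00323 and 0 in HC GFP-, and was listed at 0 in all EC pools. In each of them HC GFP+ replicate 3 was the highest of the 12 libraries.

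The changes were also set beside the promoter letters shown above. In HC, the 11 tested members with the core of the interferon-stimulated response element had a median log2 change of 0.72 between GFP+ and GFP- cells, from 0.05 to 1.39, and 0 were called. The 17 tested members with a window but without the core had a median of 0.85, from -0.02 to 1.99, with 4 called. Over all tested genes, 2.98% were higher and 1.28% lower in HC GFP+ than in HC GFP-. These are descriptions of a window of 300 bases in few genes, and whether members with and without the core differ was not tested.

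The rest of the pathway was read through 91 further genes, of which 84 were in the table and 59 could be tested. Of the 13 interferon genes in the table, 12 were listed at 0 in all 12 libraries, Ifnb1 and Ifng among them, and Ifne was read at 0.255 FPKM in HC GFP- replicate 3 and 0.0753 in EC GFP- replicate 1. The receptor genes were read at much higher levels. Ifnar1 averaged 47.7 ± 4.58 FPKM in HC GFP+, 49.0 ± 1.23 in HC GFP-, 46.9 ± 3.66 in EC GFP+ and 49.1 ± 3.49 in EC GFP- (SD, n = 3 each), differences within the spread of the pools. Il10rb, a receptor chain shared by interferon lambda, averaged 22.0 ± 8.49 FPKM in HC GFP+, 19.3 ± 4.38 in HC GFP-, 14.2 ± 1.71 in EC GFP+ and 13.3 ± 1.51 in EC GFP- and passed in no comparison.

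Of the 5 receptor genes tested, 1 was higher and 0 lower in HC GFP+ than in HC GFP- (2.98% and 1.28% of all genes). This was Ifngr1, at 40.7, 45.3 and 49.7 FPKM against 33.1, 29.9 and 28.3 (log2 0.55, adjusted p = 0.0135), which missed the threshold when HC GFP+ replicate 3 (0.49), HC GFP- replicate 2 (0.54) or HC GFP- replicate 3 (0.51) was dropped. In EC, 0 were higher and 1 was lower (6.96% and 6.51% of all genes): Ifngr2 stood at 15.9, 14.9 and 18.8 FPKM in EC GFP+, against 25.8, 20.8 and 27.2 in EC GFP- (log2 -0.54, adjusted p = 0.0395, and -0.35 with no call when libraries had an equal sum). That call also ended without any 1 of the HC GFP- pools (-0.54 each) and with 1 of EC GFP+ replicates 1 and 2 (-0.52 and -0.48) or of EC GFP- replicates 1 and 3 (-0.51 and -0.47) dropped. Between HC GFP+ and EC GFP+, 2 receptor genes were higher in HC GFP+ and 0 lower (8.21% and 6.09% of all genes). These were Ifnar2 (37.2 ± 5.1 against 26.9 ± 1.01 FPKM, log2 0.44, adjusted p = 0.0196) and Ifngr2 (25.1 ± 5.85 against 16.5 ± 1.99, log2 0.56, adjusted p = 0.0324). Without HC GFP+ replicate 3 they were at 0.34 and 0.38 and did not pass. Each also missed the threshold without EC GFP+ replicate 1 (0.41 and 0.54) or 2 (0.45 and 0.49), and Ifnar2 without HC GFP+ replicate 1 (0.45).

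Irf9, the DNA-binding partner of Stat2, was the 1 of 8 signalling genes that passed in both GFP comparisons. It stood at 15.3, 18.2 and 20.3 FPKM in HC GFP+, against 9.84, 9.75 and 10.8 in HC GFP- (log2 0.76 ± 0.14, adjusted p = 0.0117, and 0.67 with adjusted p = 0.0517 without HC GFP+ replicate 3). In endothelium it stood at 10.3, 10.5 and 14.6 FPKM in EC GFP+, against 7.35, 8.14 and 6.58 in EC GFP- (log2 0.60 ± 0.14, adjusted p = 0.0182), and did not pass without EC GFP+ replicate 3 (0.45) or EC GFP- replicate 3 (0.54). The groups were apart in both types of cell, and none of the 8 was lower in either (2.98% of all genes were higher in HC and 6.96% in EC). Between HC GFP+ and EC GFP+, 2 of the 8 were higher and 0 lower (8.21% and 6.09% of all genes), and between HC GFP- and EC GFP- it was 0 and 0.

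Of 7 genes for inhibitors of the pathway, Socs3, a feedback inhibitor of cytokine receptors, was the 1 that passed as higher with GFP in each cell type. It averaged 51.6 ± 6.69 FPKM in HC GFP+, against 32.7 ± 3.63 in HC GFP- (log2 0.64, adjusted p = 0.0195), and 43.3 ± 7.58 in EC GFP+, against 31.2 ± 0.806 in EC GFP- (log2 0.45, adjusted p = 0.0453). The HC call ended when 1 of HC GFP+ replicates 2 and 3 (0.59 and 0.57) or of HC GFP- replicates 1 and 3 (0.57 and 0.62) was dropped, and the EC call held in the omission of just 4 pools, which were replicates 1 and 3 of HC GFP+, replicate 2 of HC GFP- and replicate 2 of EC GFP+ (0.32 to 0.47 in the others). The phosphatase genes Ptpn2 (19.6 ± 1.04 against 27.9 ± 3.72 FPKM, log2 -0.48, adjusted p = 0.00627) and Ptpn1 (55.8 ± 4.79 against 72.1 ± 9.64, log2 -0.36, adjusted p = 0.0437) were lower in EC GFP+ than in EC GFP-. Ptpn2 passed without any 1 pool, whereas Ptpn1 passed in the omission of just HC GFP- replicate 1 or EC GFP- replicate 1 (-0.41 to -0.26 in the others) and had -0.16 with libraries of equal sum. Over all genes, 2.98% were higher in HC GFP+ than in HC GFP-, and 6.96% were higher and 6.51% lower in EC GFP+ than in EC GFP-. Between HC GFP+ and EC GFP+, 2 of the 7 were higher and 0 lower (8.21% and 6.09% of all genes), and between HC GFP- and EC GFP- it was 1 and 0 (2.36% and 1.93%).

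Of 12 sensing and effector genes, 0 passed between HC GFP+ and HC GFP-, against 2.98% of all genes higher and 1.28% lower. Between EC GFP+ and EC GFP-, where 6.96% of all genes were higher and 6.51% lower, Ikbke, a kinase gene of the interferon induction pathway, was higher (2.57 ± 0.433 against 0.991 ± 0.391 FPKM, log2 0.85, adjusted p = 0.0443) and Tmem173, which encodes STING, was lower (14.8 ± 0.441 against 22.0 ± 1.79 FPKM, log2 -0.54, adjusted p = 0.00859). Ikbke passed in the omission of just 4 pools, HC GFP+ replicate 3, HC GFP- replicates 1 and 2 and EC GFP- replicate 3 (0.73 to 0.91 in the others). Between HC GFP+ and EC GFP+, 6 of the 12 were higher and 0 lower, against 8.21% and 6.09% of all genes.

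Of 27 further interferon-stimulated genes outside the 39, 2 were higher and 0 lower between HC GFP+ and HC GFP- (2.98% of all genes higher), 3 and 0 between EC GFP+ and EC GFP- (6.96%), 8 and 0 between HC GFP+ and EC GFP+ (8.21%), and 3 and 0 between HC GFP- and EC GFP- (2.36%). Parp10, an ADP-ribosyltransferase gene, passed in both GFP comparisons, at 6.29 ± 1.52 FPKM in HC GFP+ against 2.98 ± 0.285 in HC GFP- (log2 0.85, adjusted p = 0.0367) and 4.92 ± 1.1 in EC GFP+ against 2.54 ± 0.671 in EC GFP- (log2 0.74, adjusted p = 0.0333). Tor3a had 9.53 ± 3.99 FPKM in HC GFP+ against 4.09 ± 0.835 in HC GFP- (log2 1.0, adjusted p = 0.0303, and 0.71 with no call without HC GFP+ replicate 3). In EC, Slfn2 had 9.76, 12.1 and 10.6 FPKM with GFP, against 1.38, 1.94 and 1.96 without it (log2 2.10 ± 0.49, adjusted p = 0.0179), and Gbp3, a guanylate-binding GTPase gene, had 2.93 ± 0.523 against 1.06 ± 0.148 (log2 0.93, adjusted p = 0.0216). Parp10 in HC missed the threshold with any 1 HC pool but HC GFP+ replicate 1 dropped (0.73 to 0.91), and with EC GFP+ replicate 2 or EC GFP- replicate 1 dropped (0.85). In EC it did so with replicate 2 or 3 of EC GFP+ or replicate 1 or 3 of EC GFP- dropped (0.58 to 0.81). Tor3a did so with any 1 HC GFP- pool dropped (0.86 to 1.10), and Slfn2 (2.0 to 2.11) and Gbp3 (0.84 to 0.92) with replicate 2 or 3 of EC GFP+ or replicate 1 of EC GFP- dropped. With the compared libraries fitted alone, Irf9, Ptpn2, Ptpn1, Socs3, Ifngr2 and Parp10 in EC and Tor3a and Parp10 in HC no longer passed. In the test of the difference between the 2 GFP effects, 0 of the 59 pathway genes passed. Few genes of any kind did so, as 0.188% of all genes were higher and 0.339% lower.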

How the data were processed

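RNA-seq was made from 12 pools, 3 in each of 4 sorted populations, which the labels call independent biological samples. The authors deposited a table of FPKM values, 1 row per gene. The build was mm9 and the tools DESeq, edgeR, featureCounts and Cufflinks, per the submitters' processing notes. The aligner, annotation and strand setting were not given in the sources used here. Read numbers are unknown, so the deposited FPKM were not tested as counts.

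Genes that reached FPKM 1 in at least 3 of 12 libraries (13278 of 33531) were analysed as log2(FPKM + 1), which understates changes of low genes, with limma 3.58.1 in R 4.3.3: 4 group means, 8 residual degrees of freedom, an intensity trend, two-sided tests and Benjamini-Hochberg adjustment over all tested genes of each of 5 comparisons. The script was tested on simulated data. The 39 members and the other lists were chosen with earlier results of these data known. Values in every library are given for members past the threshold, the 5 most abundant and the Ifitm genes, and other members named with values were chosen after these were seen. Promoters came from RefSeq (GRCm38.p6), matched by symbol.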

Additional observations from a re-analysis of the deposited data

How the results depend on the processing

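The count of members past the threshold depended on the processing. The percentages in brackets are the shares of all genes called higher in the same fit. Between HC GFP+ and HC GFP- the count was 5 (2.98%), against 1 with no filter (1.63%) and 3 with a stricter filter (mean FPKM at least 5, 2.61%). It was 1 with the compared groups fitted alone (2.24%) and 0 to 7 when 1 library was left out (1.74% to 3.36%). Between EC GFP+ and EC GFP- it was 0 (6.96%), against 1 with a pseudocount of 0.1 (7.14%), 1 with the stricter filter (7.63%) and 5 with libraries of equal sum (14.4%). It was 3 with quantile normalization (6.9%), 3 with the groups alone (4.53%) and 0 to 4 with 1 library left out (4.56% to 7.49%). With the macrophage level as a covariate, an alternative added after the data were seen, it was 2 (Oasl2 and Sp100, against 7.34% of all genes). Between HC GFP+ and EC GFP+ it was 6 (8.21%), against 3 with the stricter filter (8.04%) and 2 with the groups alone (5.96%). It was 2 to 10 there with 1 library left out (5.41% to 8.93%). Between HC GFP- and EC GFP- it was 0 (2.36%), against 1 with a pseudocount of 0.1 (2.67%) and 0 to 1 with 1 library left out (0.331% to 3.04%). For the difference of the GFP effects it was 0 (0.188%), against 0 to 1 (0.0301% to 0.241%). With 1 library left out, the median log2 change of the members was 0.41 to 0.99 for HC GFP+ against HC GFP-, 0.29 to 0.39 for EC GFP+ against EC GFP-, 0.30 to 0.83 for HC GFP+ against EC GFP+, 0.07 to 0.31 for HC GFP- against EC GFP- and 0.12 to 0.54 for the difference. None of 741 values of single genes under an alternative was a called change that turned its sign. An equal sum moved the median change of all genes to 0.14 between EC GFP+ and EC GFP- and between HC GFP- and EC GFP-, and to -0.10 for the difference. The deviations of libraries with the same replicate number were weakly correlated, from -0.08 to 0.27 over all pairs of populations. For replicates 1, 2 and 3 of the 2 HC populations the values were -0.04, 0.27 and -0.06, and for replicate 2 of HC GFP- and EC GFP- it was 0.20. A weak correlation over all genes cannot show whether the numbers pair the samples, so this stays unknown. With a replicate block the counts were 7 between HC GFP+ and HC GFP- (3.04%), 2 between EC GFP+ and EC GFP- (6.88%) and 10 between HC GFP+ and EC GFP+ (8.21%). Depth is unknown, so how far low members such as Oas3 are limited by it could not be measured.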
